A study of Mus musculus with 12 samples.

Results

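Amino acid transporter genes of 7 solute carrier families (Slc1, Slc3, Slc6, Slc7, Slc36, Slc38 and Slc43) were examined in right atrial RNA of iNICD mice and of littermate control mice. Members were the protein-coding genes whose symbol begins with Slc1a, Slc3a, Slc6a, Slc7a, Slc36a, Slc38a or Slc43a and a digit, which gave 64 of the 40690 genes in the table. The rule used names only and no measured value. It also takes in Slc7a6os, a neighbour of Slc7a6 on the opposite strand that encodes no transporter. The iNICD group (6 libraries) carries that genotype label, and the series title speaks of transient activation of Notch, a receptor whose intracellular domain (NICD) enters the nucleus and switches on genes through RBPJ. The control group (6 libraries) consists of littermates with the genotype label Control. Both groups were adults that ate doxycycline chow for 3 weeks from 2 to 3 months of age, and the atria were collected with the chow still being fed. The labels give no strain, no sex, and neither the promoter nor the cell type in which the Notch domain is switched on. They also do not say whether each atrial sample came from 1 animal, so the p-values measure the spread between these samples, which may be technical in part.

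Amino acids cross the plasma membrane on carriers with overlapping substrates. Sodium-coupled carriers of the Slc1, Slc6 and Slc38 families concentrate neutral amino acids, glutamate, taurine or creatine inside the cell. Exchangers of the Slc7 family then trade these for leucine, arginine, lysine or cystine, and most of them reach the cell surface only when bound to an Slc3 heavy chain. Proton-coupled Slc36 carriers work at the plasma membrane and on lysosomes, where amino acid supply is sensed for the growth kinase mTORC1. When uncharged transfer RNAs accumulate or the endoplasmic reticulum or mitochondria are stressed, the transcription factor ATF4 raises many genes for amino acid synthesis and transport, several members among them. In heart muscle, taurine, glutamine and creatine are held at high concentrations by such carriers.

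Depth ranged from 12015650 to 22716190 reads assigned to genes per library, and values are CPM, the reads of a gene scaled to the total assigned reads of its library. Notch1 was at 3064 to 5358 CPM in the iNICD libraries and at 192 to 293 CPM in the controls, as their labels say. Markers of atrial muscle (Nppa, Myl7, Myl4, Sln, Bmp10 and Tbx5) summed to 8635 to 12194 CPM in iNICD atria and to 20410 to 26503 CPM in control atria. Control 4 stood apart from the other controls. It was the highest or the lowest control for 27 of the 39 members that could be tested (69.2%), against 62.2% of all tested genes. Each of the other 11 libraries was at an end of its group for 8 to 16 of these members. Values without control 4 are therefore drawn for all 39 members in the plot of fold changes and given in the text for the called members and for several others that it moves. The RNA Xist was at 464 to 649 CPM in iNICD 1 to 3 and in controls 1, 2, 3 and 5. It was at 7.07 to 13.5 CPM in iNICD 4 to 6 and in controls 4 and 6. The labels give no sex to set beside these levels. Fits without control 4 keep control 6 as the only control low in Xist.

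Most of the transporter genes did not differ detectably between iNICD and control atria. Of the 64 members, 39 reached 1 CPM in at least 6 of the 12 libraries and were tested, and 25 were below this filter. Slc1a2 and Slc7a7 were higher and Slc38a3 was lower in iNICD atria (limma on log2(CPM + 0.5), Benjamini-Hochberg adjusted p under 0.05 over 14336 genes). These 3 called members are 7.69% of those tested, against 6.71% of all tested genes. One of them, Slc1a2, reached 1 CPM in all 6 iNICD libraries but only in controls 1 and 4. It thus passed the filter through the group in which it was high. In the background 4.87% of genes were called higher and 1.84% lower. The share of called transporter genes thus lay near the share over the whole transcriptome. Slc7a7 was the 1 of 39 members (2.56%) whose 6 iNICD libraries all lay outside the range of the 6 controls, against 4.59% of all tested genes.

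The fold changes of the members were centred near 0. Fold changes are differences of mean log2(CPM + 0.5), iNICD minus control, a scale that understates the change of low genes. They were positive for 20 and negative for 19 of the 39 tested members, with a median of 0.01, against 0.05 over all tested genes. The median size regardless of sign was 0.15 for the members and 0.13 for all tested genes. Of the 39, 35 (89.7%) moved by less than 0.5, as did 92% of all genes. The 95% interval lay within a log2 change of 1 in either direction for 36 members (92.3%), and for 92.2% of all genes. At an unadjusted limma p under 0.05 there were 8 members (20.5%), against 18.8% of all genes.

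**Figure D1:**
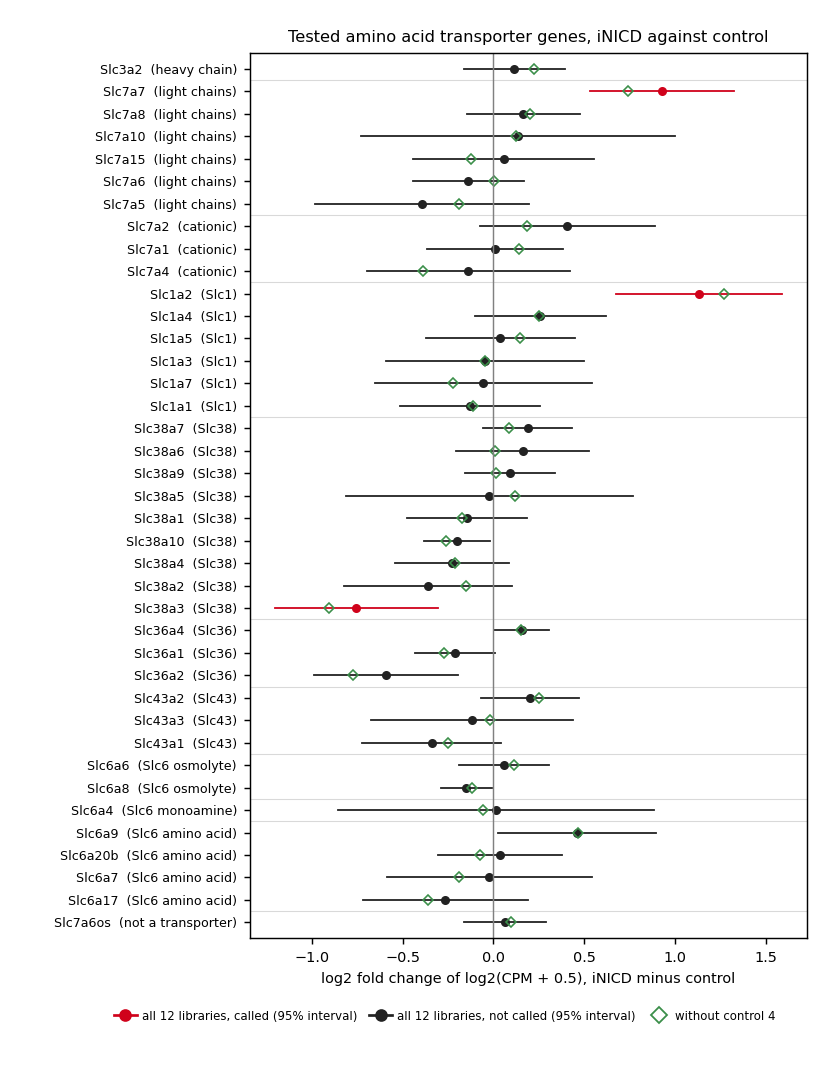
Log2 fold change (iNICD minus control, on log2(CPM + 0.5)) of each of the 39 tested members with its 95% interval from limma, grouped by family or role, and the value without control 4 as an open diamond. Slc7a7 (0.93) and Slc1a2 (1.13) lie to the right of 0 and Slc38a3 (-0.76) to the left, while the intervals of most other members span 0.

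Measured per length of exon, the most abundant members were Slc38a10, Slc7a7, Slc38a2, Slc43a3 and Slc6a6, in the order of the mean over both groups. Slc7a7 had the highest mean in iNICD atria, at 39.8 CPM per kb of exon in iNICD against 21.5 in control. Slc38a10 had the highest mean in control atria, at 28.9 CPM per kb in iNICD and 33.3 in control. The next 5 members lay close together. Slc38a2 was at 17.7 CPM per kb in iNICD and 24.2 in control, Slc43a3 at 19.5 and 21.1, Slc6a6 at 20.4 and 19.6, Slc3a2 at 18.1 and 17.0, and Slc6a8 at 15.9 and 17.6, each with the iNICD mean given before the control mean. The library ranges of these 5 overlapped within each group, so their order is not resolved by these samples. At the other end Slc1a2, the member with the largest fold change, was the lowest of all 39 tested per length, at 0.211 CPM per kb in iNICD atria and 0.0767 in control atria.

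**Figure D2:**
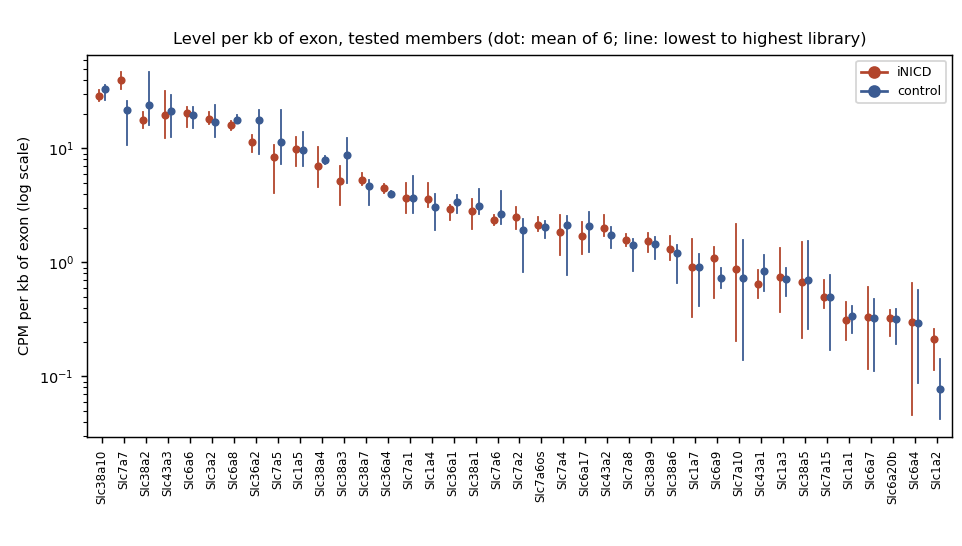
Level of each of the 39 tested members in CPM per kb of exon on a log scale, iNICD left of control for each gene, with the mean of 6 libraries as a dot and the lowest to highest library as a line. The levels span from over 20 CPM per kb for Slc38a10 and Slc7a7 to below 1 for Slc1a2, and the iNICD and control lines overlap for most genes.

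Among the heteromeric transporters, the light chain gene Slc7a7 rose and the other tested light chains and the heavy chain did not pass the test. Slc7a7 (ENSMUSG00000000958, chromosome 14, 54369442 to 54417780, minus strand, GRCm38) encodes an exchanger of cationic against neutral amino acids, known for its loss in lysinuric protein intolerance and for its expression in macrophages. Its levels were 139.9, 118.9, 109.9, 154.9, 130.2 and 138.2 CPM in iNICD 1 to 6 and 70.0, 74.9, 77.3, 35.3, 84.8 and 86.1 CPM in controls 1 to 6. Every iNICD library was above every control, and control 4 was far below the other controls. The means were 132.0 ± 16.0 CPM in iNICD and 71.4 ± 18.7 CPM in control atria (SD, n = 6 each), a log2 fold change of 0.93 (SE 0.18, limma adjusted p = 0.0079, exact two-sided permutation p = 0.0022, the smallest that 6 against 6 allows). Without control 4 the log2 fold change was 0.74 (SE 0.09, limma adjusted p = 4.27e-05). Across all 24 alternatives chosen with the design the Slc7a7 call held. Added later, the libraries high in Xist alone gave a log2 fold change of 0.67 and those low in Xist alone gave 1.34, which missed the threshold (limma adjusted p = 0.33) with controls 4 and 6 as its only controls.

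Of 6 listed macrophage markers 4 were also called higher in iNICD atria, against 4.87% of all tested genes. These were Cx3cr1 (log2 fold change 1.53), Adgre1 (0.78), C1qa (0.47) and Csf1r (0.44), and Cd68 (0.27) and Mrc1 (0.11) did not pass the test. In other listed cell types, 4 of 4 tested markers of dividing cells were called higher. So was the 1 tested marker of T and B cells, and 1 of 5 tested markers each of mast cells, fibroblasts, and smooth muscle and pericytes. The other tested markers of these types were not called. The 6 macrophage markers summed to 388 to 541 CPM in iNICD and 309 to 393 CPM in control atria, and none was at 0. Their part in the Slc7a7 difference was not tested. In whole atria, more cells of a type and more RNA per cell cannot be told apart. An overlap with the gene Oxa1l on the opposite strand covers 7% of the Slc7a7 exon bases, and the strand setting of the counting is not given in the sources used here.

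Slc3a2, the heavy chain that carries most of these exchangers to the surface, was at 57.1 to 73.9 CPM (median 62.1) in iNICD and 44.5 to 85.0 CPM (median 56.7) in control atria. The groups overlapped, and the log2 fold change of 0.12 had a 95% interval from -0.16 to 0.39 and was 0.22 without control 4. Slc7a5, the light chain that imports leucine and other large neutral amino acids, was at 15.1 to 39.4 CPM (median 34.0) in iNICD and 26.9 to 79.8 CPM (median 37.5) in control atria. Its log2 fold change of -0.39 (95% interval -0.98 to 0.20) was -0.19 without control 4, the library at 79.8 CPM. Slc7a8, a second carrier of large and small neutral amino acids, was at 7.92 ± 0.70 CPM in iNICD and 7.14 ± 1.52 CPM in control atria (SD, n = 6 each; log2 fold change 0.17, limma adjusted p = 0.61). Slc7a6 (-0.14, or 0.00 without control 4), Slc7a10 (0.14) and Slc7a15 (0.06) did not pass either. The 10 light chain genes together summed to 166 to 196 CPM in iNICD and 127 to 145 CPM in control atria, and Slc7a7 made up most of that sum in the iNICD libraries.

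Slc7a11 was too low for the filter but was higher in iNICD atria by the permutation test. It encodes xCT, the exchanger of cystine against glutamate that feeds glutathione synthesis, and it is a known ATF4 target (ENSMUSG00000027737, chromosome 3, 49892526 to 50443614, minus strand, GRCm38). Its levels were 2.15, 1.77, 0.798, 0.516, 1.58 and 1.32 CPM in iNICD 1 to 6 and 0.264, 0.416, 0.236, 0.446, 0.616 and 0.652 CPM in controls 1 to 6. iNICD 4 lay within the control range and the other 5 iNICD libraries lay above it. These values rest on 113 reads in all iNICD libraries and 41 reads in all controls, and the exact two-sided permutation p was 0.0065, unadjusted. In a fit with no filter the log2 fold change was 0.93 (limma adjusted p = 0.0255). That call was lost in 6 of the 12 fits with a single library removed, namely without iNICD 1, 2 or 5 or control 1, 2 or 3, with adjusted p up to 0.070. Over all 22 alternatives run for it without a filter, these 6 included, it was lost in 7. The other heavy chain gene, Slc3a1, was also below the filter, with 50 reads in iNICD and 57 reads in control libraries.

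**Figure D3:**
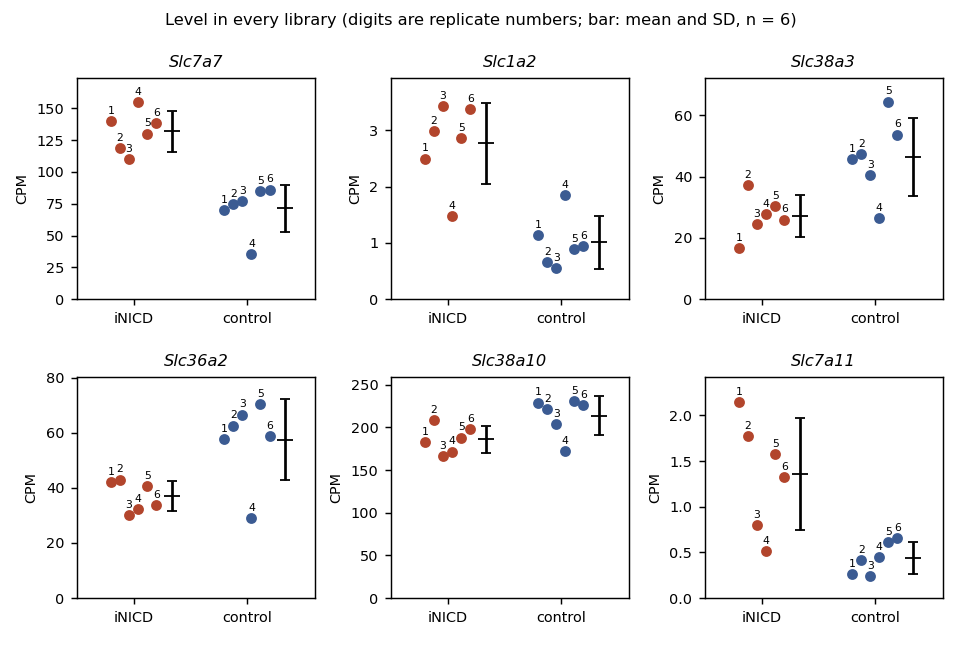
CPM of 6 members in each library, iNICD left of control, with replicate numbers beside the points and the mean and SD (n = 6) as a bar. Slc7a7 shows no overlap between the groups, control 4 lies among or near the iNICD libraries for Slc1a2, Slc38a3, Slc36a2 and Slc38a10, and for Slc7a11 iNICD 4 lies within the control range.

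The promoters of the members were searched for the core of the amino acid response element, TGATGNAA, which ATF4 binds together with C/EBP proteins. The window ran from 250 bases before to 50 bases after each RefSeq start (GRCm38.p6), and both strands were read. Of the 64 members 46 had an entry, among them 28 of the 39 tested members, with 67 windows in all. The core was found in 5 of these windows (7.46%), against 3.97% of all 32851 windows in the table. The windows of Slc7a7 with the core overlap and share a match that is counted in each. The 5 windows belonged to Slc7a7, Slc7a11, Slc1a4 and Slc6a21. The 3 members of these 4 with a level above 1 CPM in any library are shown, up to base 10 after the start, in the direction of transcription and with the core in capitals on either strand.
Slc7a11, chr3:50443604-50443863, minus strand: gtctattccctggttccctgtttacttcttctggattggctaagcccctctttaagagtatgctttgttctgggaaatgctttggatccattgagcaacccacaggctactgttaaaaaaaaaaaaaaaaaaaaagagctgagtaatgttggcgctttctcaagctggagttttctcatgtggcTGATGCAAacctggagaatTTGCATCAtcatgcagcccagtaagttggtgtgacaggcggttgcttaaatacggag
Slc7a7, chr14:54417935-54418194, minus strand: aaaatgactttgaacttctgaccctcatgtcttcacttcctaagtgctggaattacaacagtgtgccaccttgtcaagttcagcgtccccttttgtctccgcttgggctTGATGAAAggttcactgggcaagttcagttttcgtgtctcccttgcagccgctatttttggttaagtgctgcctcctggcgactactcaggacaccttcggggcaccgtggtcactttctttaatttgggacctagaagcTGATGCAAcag
Slc1a4, chr11:20332704-20332963, minus strand: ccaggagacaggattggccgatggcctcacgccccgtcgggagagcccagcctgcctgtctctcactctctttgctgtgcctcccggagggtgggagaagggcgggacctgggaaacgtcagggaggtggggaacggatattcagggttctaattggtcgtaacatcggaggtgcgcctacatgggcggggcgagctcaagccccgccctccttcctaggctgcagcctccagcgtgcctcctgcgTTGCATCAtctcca
In Slc7a11 the core occurs in both directions, with first bases 66 and 47 bases before the start. In Slc7a7, shown at the most upstream of its listed starts, it occurs at 141 bases and at 1 base before the start, and in Slc1a4 at 4 bases before it. A match in letters is a description and no evidence of binding, and Slc1a4 did not pass the test. The RBPJ core GTGGGAA, likewise on both strands, was in 8 of the 67 member windows (11.9%) and in 6.38% of all windows. The Slc6a12 windows with this core overlap and share a match that is counted in each. Its 6 members were Slc6a5, Slc6a12, Slc6a13, Slc6a17, Slc6a19 and Slc7a6os, of which only Slc6a17 and Slc7a6os were tested. None of the 3 called members is among them. Whether Slc1a2 and Slc38a3 had an entry to search is not given here, so no absence of the core is read from this for them.

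None of the 3 tested cationic amino acid transporter genes passed the test. Slc7a1, the main arginine and lysine uniporter of many cells, was at 31.3 to 56.8 CPM (median 40.3) in iNICD and 31.2 to 66.0 CPM (median 39.9) in control atria, with a log2 fold change of 0.01 (95% interval -0.37 to 0.38), or 0.14 without control 4. Slc7a2, an arginine carrier induced in activated macrophages, was at 18.0 to 28.1 CPM in iNICD and 7.52 to 22.0 CPM in control atria. The lowest value was control 4, and the log2 fold change of 0.41 (limma adjusted p = 0.36) was 0.19 without it. Slc7a4 was at 4.77 to 10.9 CPM in iNICD atria, against 3.19 CPM in control 4 and 9.61 to 10.5 CPM in the other controls. Its log2 fold change of -0.14 was -0.39 (SE 0.16, limma adjusted p = 0.15) without control 4. The 5 cationic carrier genes summed to 56.9 to 85.2 CPM in iNICD and 62.9 to 80.5 CPM in control atria.

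In the Slc1 family of glutamate and neutral amino acid carriers, Slc1a2 rose and the other 5 tested genes did not pass the test. Slc1a2 (ENSMUSG00000005089, chromosome 2, 102658659 to 102790784, plus strand, GRCm38) encodes the sodium-coupled glutamate transporter best known for clearing glutamate around synapses in the brain. Its levels were 2.50, 2.98, 3.43, 1.48, 2.86 and 3.37 CPM in iNICD 1 to 6 and 1.14, 0.666, 0.551, 1.85, 0.889 and 0.949 CPM in controls 1 to 6. The groups overlapped through iNICD 4 and control 4 alone. Only controls 1 and 4 reached 1 CPM, so Slc1a2 met the filter through its iNICD libraries. In a fit with no filter its log2 fold change was also 1.13 (limma adjusted p = 0.00435). The means were 2.77 ± 0.719 CPM in iNICD and 1.01 ± 0.462 CPM in control atria (SD, n = 6 each), from 230 reads and 99 reads over the 6 libraries of each group. The log2 fold change was 1.13 (SE 0.21, limma adjusted p = 0.0041, exact two-sided permutation p = 0.0043). Without control 4 it was 1.27 (limma adjusted p = 4.82e-04), and the groups no longer overlapped. Without control 3, iNICD 3 and iNICD 5, the 3 libraries rich in the RNAs Gm42418 and Rn7sk, it was 0.94 and missed the threshold (limma adjusted p = 0.0675). In the libraries high in Xist alone it was 1.41 (limma adjusted p = 0.0016), and in those low in Xist alone, with controls 4 and 6 as the only controls, it was 0.68 and missed the threshold (adjusted p = 0.74).

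Slc1a5, a carrier that exchanges glutamine for other neutral amino acids, was at 41.3 ± 9.83 CPM in iNICD and 40.5 ± 11.6 CPM in control atria (SD, n = 6 each), a log2 fold change of 0.04 (95% interval -0.37 to 0.45), or 0.15 without control 4. Slc1a4, which carries serine, alanine and cysteine, was at 11.99 to 19.4 CPM in iNICD and 7.55 to 15.6 CPM in control atria (log2 fold change 0.26, limma adjusted p = 0.46). Slc1a3, a glutamate carrier, was at 3.15 to 11.4 CPM in iNICD and 4.33 to 7.66 CPM in control atria, a wider spread in the iNICD group (log2 fold change -0.05). Slc1a1 (-0.13) and Slc1a7 (-0.06) did not pass either.

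Slc38a3 was lower in iNICD atria, but the call was close to the threshold and was lost in many of the alternatives. It encodes a sodium-coupled glutamine carrier that can run in either direction (ENSMUSG00000010064, chromosome 9, 107650634 to 107669530, minus strand, GRCm38). Its levels were 16.6, 37.2, 24.4, 27.8, 30.4 and 26.0 CPM in iNICD 1 to 6 and 45.8, 47.4, 40.4, 26.4, 64.4 and 53.7 CPM in controls 1 to 6. All iNICD libraries lay below 5 of the 6 controls, and control 4 lay among them. The means were 27.1 ± 6.80 CPM in iNICD and 46.4 ± 12.8 CPM in control atria (SD, n = 6 each), a log2 fold change of -0.76 (SE 0.21, limma adjusted p = 0.045, exact two-sided permutation p = 0.011). Without control 4 it was -0.91 (limma adjusted p = 0.0055), without overlap. In 10 of the 12 fits that left out 1 library it missed the threshold, with adjusted p up to 0.094, and it held without iNICD 2 or control 4. It was also missed without a filter on low genes (limma adjusted p = 0.0567), with a covariate for Xist (-0.74, adjusted p = 0.0592), in the libraries high in Xist (-0.96, adjusted p = 0.10) or low in Xist alone (-0.42, adjusted p = 0.79), and without control 3, iNICD 3 and iNICD 5 (-0.81, adjusted p = 0.15). Markers of atrial muscle were also lower in the iNICD group, with 5 of 6 called lower, against 1.84% of all tested genes. Their sum was at most 12194 CPM in any iNICD library and at least 20410 CPM in every control. This holds for control 4 too, and its place among the controls in this sum is not given here. The part of atrial muscle in the Slc38a3 difference was not tested.

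The other 8 tested Slc38 genes did not pass the test. Slc38a2, the carrier of small neutral amino acids that cells raise when starved of them, was at 134 to 184 CPM (median 149) in iNICD and 141 to 413 CPM (median 180) in control atria. Control 4 held the 413 CPM and the other controls 141 to 210 CPM, and the log2 fold change of -0.36 (95% interval -0.82 to 0.10) was -0.15 without it. Slc38a10, the most abundant member per length, was at 166 to 209 CPM in iNICD and 172 to 231 CPM in control atria, a log2 fold change of -0.20 (SE 0.09, limma adjusted p = 0.21). Slc38a10 passed the threshold without control 4 (-0.26, limma adjusted p = 0.0325), with median-of-ratios scaling (-0.26, adjusted p = 0.0349), with edgeR (-0.25, adjusted p = 0.0344) and with DESeq2 (-0.25, adjusted p = 0.0034). Slc38a1, a glutamine importer, was at 48.7 ± 11.2 CPM in iNICD and 53.5 ± 11.1 CPM in control atria (SD, n = 6 each; log2 fold change -0.14). Slc38a9, a lysosomal carrier that senses arginine for mTORC1, was at 25.6 ± 3.01 CPM in iNICD and 24.1 ± 3.99 CPM in control atria (SD, n = 6 each; log2 fold change 0.09, 95% interval -0.16 to 0.34). The 11 Slc38 genes together summed to 455 to 539 CPM in iNICD and 544 to 734 CPM in control atria, and control 4 held the highest sum.

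Slc36a2 had the largest fold change among the members that missed the threshold. It encodes a proton-coupled carrier of glycine, alanine and proline, and was at 30.2 to 43.0 CPM (median 37.2) in iNICD and 29.1 to 70.4 CPM (median 60.7) in control atria. The 29.1 CPM was control 4, and the other controls were at 57.8 to 70.4 CPM, above all iNICD libraries. The log2 fold change was -0.59 (SE 0.18, limma adjusted p = 0.076, exact two-sided permutation p = 0.026). Without control 4 it was -0.78 (SE 0.10, limma adjusted p = 9.01e-05). It also passed with median-of-ratios scaling (-0.65, limma adjusted p = 0.0228), quantile normalization (-0.64, adjusted p = 0.0298), edgeR (-0.68, adjusted p = 0.0146) and DESeq2 (-0.68, adjusted p = 6.23e-04), and missed it in the other 11 fits that left out 1 library. Slc36a1, the lysosomal proton-coupled carrier, was at 16.4 ± 1.66 CPM in iNICD and 19.1 ± 2.39 CPM in control atria (SD, n = 6 each; log2 fold change -0.21, limma adjusted p = 0.29). Slc36a4 (0.16) did not pass the test.

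Carriers of the Slc43 family, which let large neutral amino acids pass without ion coupling, did not pass the test. Slc43a1 was at 2.77 to 4.91 CPM in iNICD and 3.22 to 6.69 CPM in control atria (log2 fold change -0.34, 95% interval -0.72 to 0.04). Slc43a2 was at 20.1 ± 3.19 CPM in iNICD and 17.4 ± 3.01 CPM in control atria (SD, n = 6 each; log2 fold change 0.20, limma adjusted p = 0.43). Slc43a3, known as a carrier of purine bases rather than amino acids, was at 55.1 to 142 CPM in iNICD and 56.6 to 130 CPM in control atria, a more than 2-fold range within each group, and its log2 fold change was -0.12.

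The 2 tested Slc6 carriers of organic osmolytes and energy substrates did not pass the test. Slc6a6, the taurine transporter, was at 131 to 197 CPM (median 177) in iNICD and 128 to 196 CPM (median 172) in control atria, a log2 fold change of 0.06 (95% interval -0.19 to 0.31). Slc6a8, the creatine transporter, was at 82.7 ± 5.33 CPM in iNICD and 91.8 ± 5.87 CPM in control atria (SD, n = 6 each), a log2 fold change of -0.15 (95% interval -0.29 to -0.01, limma adjusted p = 0.24). Slc6a9, a glycine transporter, was at 2.51 to 7.02 CPM in iNICD and 3.08 to 4.58 CPM in control atria. All iNICD libraries but iNICD 4 lay above all controls, and the log2 fold change was 0.46 (limma adjusted p = 0.23), or 0.65 (limma adjusted p = 0.0155) without iNICD 4. Of the Slc6a9 exon bases 27.8% overlap Ccdc24 on the opposite strand, whose reads cannot be told apart here. Slc6a17 (-0.27), Slc6a7 (-0.02), Slc6a20b (0.03) and the serotonin transporter gene Slc6a4 (0.01) did not pass the test. Slc6a20b is a near-identical copy of Slc6a20a and overlaps Sacm1l over 21.1% of its exon bases, so its level is uncertain.

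The 25 members below the filter came mostly from the Slc6 family, in which 4 of 12 amino acid carriers, 2 of 6 osmolyte carriers and 1 of 3 monoamine carriers could be tested. Slc6a18 and Slc7a12 were listed at 0 in all 12 libraries. Besides Slc7a11 and Slc3a1, the others included Slc1a6, Slc6a2, Slc6a3, Slc6a5, Slc6a11, Slc6a12, Slc6a13, Slc6a14, Slc6a15, Slc6a16, Slc6a19, Slc6a20a, Slc6a21, Slc7a3, Slc7a9, Slc7a13, Slc7a14, Slc36a3, Slc38a8 and Slc38a11. Slc7a3, a cationic amino acid transporter, had 64 reads in iNICD and 33 reads in control libraries, at 0.396 to 1.37 CPM in iNICD and 0.205 to 0.534 CPM in control atria (exact two-sided permutation p = 0.0087, unadjusted). Without a filter its limma adjusted p was 0.13. Slc6a19, a neutral amino acid carrier of gut and kidney, had 0 reads in iNICD and 11 reads in control libraries, and without a filter it was called lower (limma adjusted p = 0.033). Slc6a12, a betaine carrier, was at 4.08 CPM in control 4 and at no more than 0.483 CPM in any other library. Slc6a2, the noradrenaline transporter of sympathetic nerves, had 22 reads in iNICD and 35 reads in control libraries.

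Control 4 departed from the other controls in both directions, depending on the gene. Slc38a2 was 2.38 times, Slc7a5 2.30 times, Slc7a6 1.82 times, Slc7a1 1.75 times and Slc3a2 1.54 times the mean of the other 5 controls in that library. In contrast Slc7a4 was at 0.319, Slc7a2 at 0.382, Slc7a7 at 0.449, Slc36a2 at 0.460 and Slc38a3 at 0.525 times that mean. Over the 39 tested members control 4 was the highest control for 13 and the lowest for 14. The cause of its departure was not tested.

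**Figure D4:**
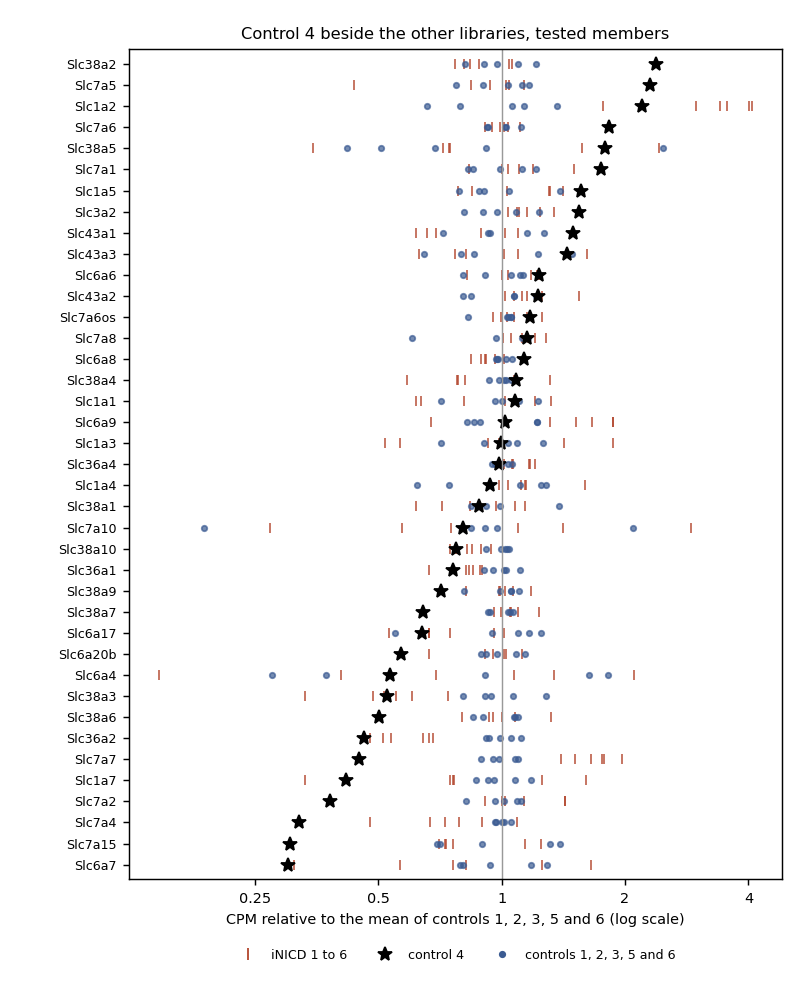
CPM of the 39 tested members relative to the mean of controls 1, 2, 3, 5 and 6 on a log scale, with the 6 iNICD libraries as ticks, control 4 as a star and the other 5 controls as dots, ordered by control 4. Control 4 runs from 0.301 times that mean for Slc6a7 to 2.38 times for Slc38a2, beyond the other controls for 27 of the 39 genes.

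Genes that work beside the transporters gave a mixed picture. Of 25 tested genes that ATF4 is known to raise, or that act with it, 12 were higher and 0 lower in iNICD atria. Over all tested genes 4.87% were called higher. The median log2 fold change of the 25 was 0.47, against 0.05 over all tested genes and 0.01 over the transporter members. This list was drawn up with rises of Mthfd2, Asns and Trib3 in these libraries known, so its count is not independent evidence. It was 10 to 13 with any single library removed and 7 without control 3, iNICD 3 and iNICD 5. Mthfd2, an enzyme of mitochondrial folate metabolism, was at 36.0 ± 13.0 CPM in iNICD and 3.09 ± 1.39 CPM in control atria (SD, n = 6 each; log2 fold change 3.36). Asns, which makes asparagine, was at 30.0 ± 9.78 CPM in iNICD and 4.88 ± 1.45 CPM in control atria (SD, n = 6 each; 2.48). Trib3 (1.65), Phgdh, the first enzyme of serine synthesis (1.49), Chac1, which breaks down glutathione (1.26), Sesn2 (0.80) and Ddit3 (0.36) were also called. The Atf4 transcript itself was at 72.1 to 107 CPM in iNICD and 76.2 to 140 CPM in control atria (log2 fold change -0.12, limma adjusted p = 0.71). ATF4 is known to be set largely by translation. Several transporter members that ATF4 is known to raise in other cells did not pass the test with all 12 libraries. Among them were Slc3a2 (0.12), Slc7a5 (-0.39), Slc38a2 (-0.36), Slc7a1 (0.01) and Slc1a5 (0.04), which are no full list. Slc1a4 (0.26), with the amino acid response element core, and Slc6a9 (0.46) did not pass either. Slc7a11 was below the filter, and its log2 fold change in the fit without a filter was 0.93 (limma adjusted p = 0.0255).

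Of 21 cytosolic aminoacyl-tRNA synthetase genes, which charge transfer RNAs with amino acids, 4 were higher and 0 lower. Over all tested genes 4.87% were called higher. Fold changes of the 21 genes were positive in 19, with a median of 0.13. Those called were Sars (0.50), Gars (0.40), Mars (0.27) and Nars (0.25), and the count was 2 with median-of-ratios scaling, quantile normalization or edgeR, without a filter, and without iNICD 1, iNICD 3, control 3 or control 5. It was 7 without control 4 and 1 without control 3, iNICD 3 and iNICD 5. In the list of amino acid sensing and mTORC1 genes 3 of 32 were higher and 0 lower, beside 4.87% of all tested genes called higher. They were Sesn2, a leucine sensor also counted in the ATF4 list, Gatsl3 (0.72) and Gatsl2 (0.58), relatives in the family of arginine sensors, with 1 called without control 3, iNICD 3 and iNICD 5. Among 10 creatine and taurine genes 0 were higher and 2 lower, beside 1.84% of all tested genes called lower. The 2 were the creatine kinases Ckm (-0.84) and Ckb (-0.32), and the creatine transporter gene Slc6a8 missed the threshold. The count of called creatine and taurine genes was 1 without control 1, 2, 3 or 5 or iNICD 1, 3 or 6. No gene was called by limma among 9 other amino acid or peptide carriers, 12 mitochondrial amino acid carriers, 22 genes of amino acid breakdown and glutamine handling, 15 of glutathione and cystine handling and 13 regulators of transporter turnover. At an unadjusted limma p under 0.05 there were 2, 3, 6, 2 and 1 genes in these 5 lists, where all tested genes gave 18.8%. On the recovered reads edgeR called 0 in each, and DESeq2 called 1, 1, 2, 0 and 0. Over all alternatives each of these 5 lists had at most 2 called genes.

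**Figure D5:**
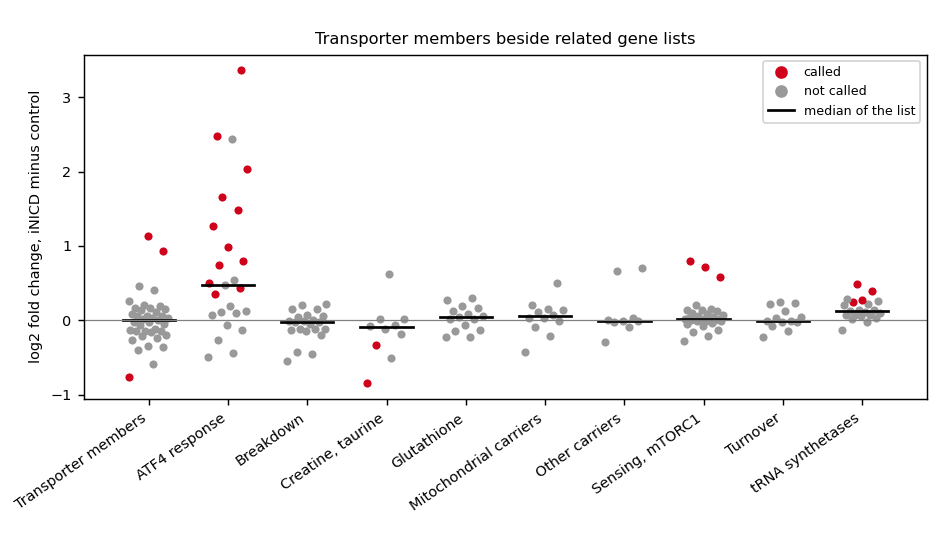
Log2 fold change (iNICD minus control) of each tested gene in the transporter group and in 9 related lists, with called genes in red and the median of each list as a bar. The ATF4 response list has 12 called genes up to 3.36 and a median of 0.47, and the transporter members lie around a median of 0.01 with 3 called.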

How the data were processed

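Right atrial RNA was sequenced in 6 iNICD and 6 control libraries. The authors deposited 1 table of CPM per gene (41264 rows for 40690 gene identifiers, repeats being identical and counted once). A deposited column of GC percent was not needed. Per the submitters' processing notes, STAR 2.4.0b and featureCounts were used. Build, annotation and strandedness of the counting: not given in the sources used here. No library column beyond the 12 mapped ones was present (0 left out).

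Every CPM value was a whole multiple of 1 read within 0.001 reads (100% of values), so whole reads were recovered. They were used for depths and for the count-based alternatives. At the filter of 1 CPM a gene rests on 12 to 22 reads. Pairs of libraries within a group differed by more than counting noise (chi-square per degree of freedom 9.22 to 88.9), so all 12 were kept as separate samples.

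The test was limma 3.58.1 (R 4.3.3) on log2(CPM + 0.5) with a mean-variance trend and robust moderation, for genes reaching 1 CPM in at least 6 libraries, with Benjamini-Hochberg adjustment over all 14336 genes and a threshold of 0.05. It was tested on simulated reads with the same spread set for every gene and no outlying library. The simulation therefore says nothing of how the test handles a library such as control 4. Single genes also had an exact two-sided permutation test over 924 relabellings. Levels per kb used merged exon lengths of GENCODE M21 (GRCm38), in which all 64 members were found. Promoters came from RefSeq (GRCm38.p6).

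Named members are those called, a set of well-known carriers, the 5 of highest mean CPM and the 5 of largest fold change that missed the threshold. Slc7a3, Slc6a19, Slc6a12 and Slc6a2 were singled out after their values were seen. Some genes are not reported here. The members and lists were chosen with earlier results of these data known. Alternatives were pseudocounts of 0.1 and 2, median-of-ratios and quantile scaling, edgeR 4.0.16 and DESeq2 1.42.0 on recovered reads, no robust estimation, a replicate block, an Xist covariate, other filters, a threshold of 0.01 and libraries left out. Fits on libraries high or low in Xist alone were added after seeing the data.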

Additional observations from a re-analysis of the deposited data

Results flagged for a closer look

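For each tested member and for Slc7a11, each group of 6 libraries was searched for a single library far from the other 5. Of 80 combinations of group and gene 18 showed one, and 11 of the 18 were control 4. For a single combination chance gives about 1 in 20. The combinations share the same 12 libraries and are not independent, so the count is a description of libraries and not of the members. Other genes were not searched in this way. In control 4 the low values were 3.19 CPM for Slc7a4 (other controls 9.61 to 10.5), 29.1 for Slc36a2, 35.3 for Slc7a7, 13.1 for Slc38a7 (18.9 to 21.7), 7.52 for Slc7a2 (16.1 to 22.0), 1.40 for Slc1a7 (2.91 to 3.97), 5.10 for Slc38a6 (8.65 to 11.1) and 1.66 for Slc6a20b (2.60 to 3.32). The high values in control 4 were 19.5 CPM for Slc7a6 (9.82 to 11.9), 413 for Slc38a2 (141 to 210) and 79.8 for Slc7a5 (26.9 to 40.5). Among the other controls Slc7a8 was low at 4.21 CPM in control 6 (6.74 to 8.07 in the rest), Slc38a1 was high at 75.4 CPM in control 5 (45.8 to 53.9) and Slc7a6os was low at 6.92 CPM in control 3 (8.62 to 9.81). In iNICD 4 the low values were 13.2 CPM for Slc36a1 (other iNICD libraries 16.3 to 17.8), 15.1 for Slc7a5 (29.2 to 39.4) and 2.51 for Slc6a9 (4.91 to 7.02). Slc1a4 was high at 19.4 CPM in iNICD 3 (12 to 13.9). The cause of these departures was not tested.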

How the results depend on the processing

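With all 12 libraries 2 members were called higher and 1 lower, and 962 of all genes were called, 72.6% of these higher. Members called lower were 3 with median-of-ratios scaling, edgeR or DESeq2 (Slc36a2, Slc38a3 and Slc38a10), 2 with quantile normalization, and 0 with the Xist covariate, at a threshold of 0.01 or without control 3, iNICD 3 and iNICD 5. Members called higher were 1 with a mean of at least 5 CPM, where Slc1a2 was not tested, and 1 without those 3 libraries. Without a filter 3 were higher (Slc7a11 added) and 1 lower, Slc6a19 and not Slc38a3. Leaving out 1 library at a time gave 2 to 3 members higher, 0 to 3 lower and 614 to 1208 called genes in all. The count over all genes was 500 without the 3 libraries, 429 at a threshold of 0.01 and 1425 with DESeq2. Of the called genes 61.0% were higher with median-of-ratios scaling, 59.6% with quantile normalization, 61.8% with edgeR and 58.8% with DESeq2. Slc1a2, Slc7a7 and Slc38a3 kept their direction in every alternative run. Fits with libraries removed have fewer samples, and the cause of the other shifts was not tested.

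The replicate numbers were not taken as pairs, since the labels tie them to nothing shared and the deviations of same-numbered libraries correlated at 0.25, 0.13, -0.01, 0.14, 0.01 and 0.32 for numbers 1 to 6. As a hint from the data, 3 of 6 pairs correlated best with their own number. With the replicate block 2 members were higher, 2 lower (Slc36a2 added, adjusted p = 0.0333, limma) and 1091 genes were called in all. At 12 to 22 reads per CPM, members below the filter are limited by depth.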
